A study of Mus musculus with 8 samples.

Results

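The DNA replication and S-phase genes described here are 49 genes, taken by symbol from a list of replication licensing, replication fork and nucleotide synthesis genes. All 49 symbols were found among the 21240 genes of the deposited count table, and all 49 were among the 11835 genes that passed a filter on low counts and were tested. They comprise 3 subunits of the origin recognition complex, the 6 subunits of the MCM2 to MCM7 helicase, 3 genes that load the helicase or restrain loading, 6 genes that activate it, 6 clamp and clamp loader genes, 8 polymerase and primase genes, 2 genes of flap removal and ligation, 4 genes of single-strand binding and fork protection, 5 genes of nucleotide synthesis, 4 genes of chromatin and histone supply and the 2 transcription factors E2f1 and E2f2.

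RNA was sequenced from NMuMG cells, a mammary gland epithelial line of normal mouse origin with a WT genotype in the labels, grown with serum and insulin until partly confluent. The cells received BRM014 or the vehicle DMSO for 30 h or 6 h. BRM014 is a small molecule that inhibits the ATPase of SMARCA4 and SMARCA2, the motor subunits of the SWI/SNF chromatin remodelling complexes; its dose is not given in the sources used here. The 4 groups were BRM014 30 h, DMSO 30 h, BRM014 6 h and DMSO 6 h, with 2 libraries each. All libraries come from 1 cell line, and the labels call replicates biological without saying that they came from separate cultures, so p-values measure only the spread between these libraries, which may be technical.

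Before S phase, the origin recognition complex, Cdc6 and Cdt1 load the MCM helicase on DNA, a step called licensing. Cdc45, the GINS complex and Mcm10 then turn the loaded helicase into an active one, and polymerases, a sliding clamp, single-strand binding proteins and a ligase copy the DNA behind it, while enzymes such as ribonucleotide reductase and thymidine kinase supply the nucleotides. Many of these genes are transcribed most strongly around the start of S phase under the control of E2F factors and the retinoblastoma family of proteins. Their RNA therefore depends on how many cells of a culture are cycling as well as on how strongly each cell transcribes them. In bulk RNA, fewer cells in S phase and less RNA of these genes per cell cannot be told apart.

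Promoters of 6 members are shown because these genes carry the results below. Cdc6 and Rrm2 had the lowest 30 h log2 fold changes among the members, Mcm5, Mcm6 and Prim1 had the lowest values among members whose BRM014 effect differed between times, and Pold2 was the member that rose at 6 h. Each sequence is the 250 bases before a RefSeq transcription start in GRCm38.p6, on the strand of the gene. Pold2 has 2 RefSeq windows, of which 1 is shown. Capitals mark the E2F-type letters TTTCCCGC, TTTCGCGC, TTTGCCGC or TTTGGCGC and the letters CCAAT, searched on both strands.
Cdc6, chr11:98907901-98908150, plus strand: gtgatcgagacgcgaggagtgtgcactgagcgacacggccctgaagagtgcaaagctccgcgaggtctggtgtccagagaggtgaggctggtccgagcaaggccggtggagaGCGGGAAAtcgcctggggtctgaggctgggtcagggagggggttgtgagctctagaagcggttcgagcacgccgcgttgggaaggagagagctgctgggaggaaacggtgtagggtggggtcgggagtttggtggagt
Rrm2, chr12:24708004-24708253, plus strand: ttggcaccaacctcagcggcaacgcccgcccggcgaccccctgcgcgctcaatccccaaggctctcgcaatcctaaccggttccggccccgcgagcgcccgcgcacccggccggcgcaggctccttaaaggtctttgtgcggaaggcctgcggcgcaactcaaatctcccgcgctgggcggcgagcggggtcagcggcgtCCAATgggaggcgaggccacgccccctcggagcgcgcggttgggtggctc
Mcm5, chr8:75109259-75109508, plus strand: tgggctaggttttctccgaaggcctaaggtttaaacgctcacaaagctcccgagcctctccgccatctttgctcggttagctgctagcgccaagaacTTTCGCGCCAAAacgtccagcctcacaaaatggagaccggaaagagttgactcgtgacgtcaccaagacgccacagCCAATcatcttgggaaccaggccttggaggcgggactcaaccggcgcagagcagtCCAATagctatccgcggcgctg
Mcm6, chr1:128359706-128359955, minus strand: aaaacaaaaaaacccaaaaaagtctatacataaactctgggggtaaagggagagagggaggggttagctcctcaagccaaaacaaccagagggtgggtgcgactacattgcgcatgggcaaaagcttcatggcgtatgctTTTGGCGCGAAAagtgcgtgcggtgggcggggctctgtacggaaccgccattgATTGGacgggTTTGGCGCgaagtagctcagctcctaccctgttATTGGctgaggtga
Prim1, chr10:128014965-128015214, plus strand: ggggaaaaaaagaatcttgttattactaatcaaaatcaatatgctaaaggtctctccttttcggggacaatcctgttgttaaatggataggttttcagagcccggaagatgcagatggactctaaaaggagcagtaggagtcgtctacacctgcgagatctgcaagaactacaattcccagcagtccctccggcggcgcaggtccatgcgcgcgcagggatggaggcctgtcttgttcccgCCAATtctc
Pold2, chr11:5878257-5878506, minus strand: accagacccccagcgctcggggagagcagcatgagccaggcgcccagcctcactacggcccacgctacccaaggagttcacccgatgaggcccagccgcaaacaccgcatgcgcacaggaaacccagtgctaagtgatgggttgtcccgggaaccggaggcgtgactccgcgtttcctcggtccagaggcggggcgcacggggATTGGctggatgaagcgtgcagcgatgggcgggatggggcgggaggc
The Cdc6 window holds 1 E2F-type match and no CCAAT. In Mcm5, 2 E2F-type matches on opposite strands overlap in 1 run of capitals, and in Mcm6 the same overlap occurs beside another match nearer the start. Rrm2, Prim1 and Pold2 have no E2F-type match and 1 CCAAT each in these windows.

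RefSeq windows of 300 bases, with 50 bases after the start included, were matched for 40 of the 49 members; Gins1, Gins2, Gins4, Gmnn, Mcm4, Pole, Prim2, Rfc2 and Tipin were not matched. Some genes have more than 1 window, and a gene was counted once if any of its windows matched. E2F-type letters were found for 15 of the 40 members (37.5%), against 447 of the 9240 tested genes with a window (4.84%). CCAAT was found for 25 members (62.5%), against 43.5% of the tested genes. The letters TTTGAA, the cell cycle homology region of many mitotic gene promoters, were found for 6 members (15.0%), against 13.9% of the tested genes. The median 30 h log2 fold change was -0.52 for the 15 members with E2F-type letters and -0.50 for the 25 without, so the medians lay close together. At 6 h the medians were -0.14 and -0.19. A match of letters is a description of the window and not a binding site.

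The libraries held 17859693 to 29955366 counts, and 13286 to 13922 genes had a count in a library. Of 9 epithelial markers, Cdh1, Krt8, Krt18 and Krt19 were abundant and were tested, Krt7, Cldn4 and Esrp1 stayed under 1 CPM (a gene's count as a share of the TMM-scaled total of its library) in every library, and Epcam and Cldn3 had no count. Of the 4, Krt19 was at 652 and 663 CPM in BRM014 30 h and 1202 and 1195 CPM in DMSO 30 h, and at 279.8 and 403 CPM in BRM014 6 h and 668 and 775 CPM in DMSO 6 h, while Cdh1, Krt8 and Krt18 were higher in both BRM014 30 h libraries than in both DMSO 30 h libraries. The 9 markers, mostly Krt8 and Krt18, summed to 7430 to 8663 CPM in BRM014 30 h and 5550 to 5714 CPM in DMSO 30 h, and to 5538 to 6128 CPM in BRM014 6 h and 5961 to 6314 CPM in DMSO 6 h; their part in the results below was not tested. The summed markers of other cell types were at most 0.411 CPM for leukocytes, 0.260 CPM for endothelial cells, 2.77 CPM for fibroblasts and 9.46 CPM for adipocytes. All changes below are shares of the RNA in a library and not amounts per cell.

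Together the 49 genes held 5133 and 5254 CPM in the BRM014 30 h libraries and 7169 and 7698 CPM in the DMSO 30 h libraries, and 8143 and 8102 CPM in the BRM014 6 h libraries and 9485 and 9377 CPM in the DMSO 6 h libraries. The sums of the 4 groups did not overlap: they were highest in DMSO 6 h, lower in BRM014 6 h and in DMSO 30 h, and lowest in BRM014 30 h. Relative to the DMSO 6 h mean, the median member was at -0.75 and -0.78 (log2) in BRM014 30 h, -0.33 and -0.30 in DMSO 30 h, and -0.18 and -0.19 in BRM014 6 h, while the median of all tested genes stayed between -0.02 and 0.01 in these libraries. The genes thus ran lower with time in vehicle as well as with the inhibitor, and the comparisons below hold time equal first.

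**Figure D1:**
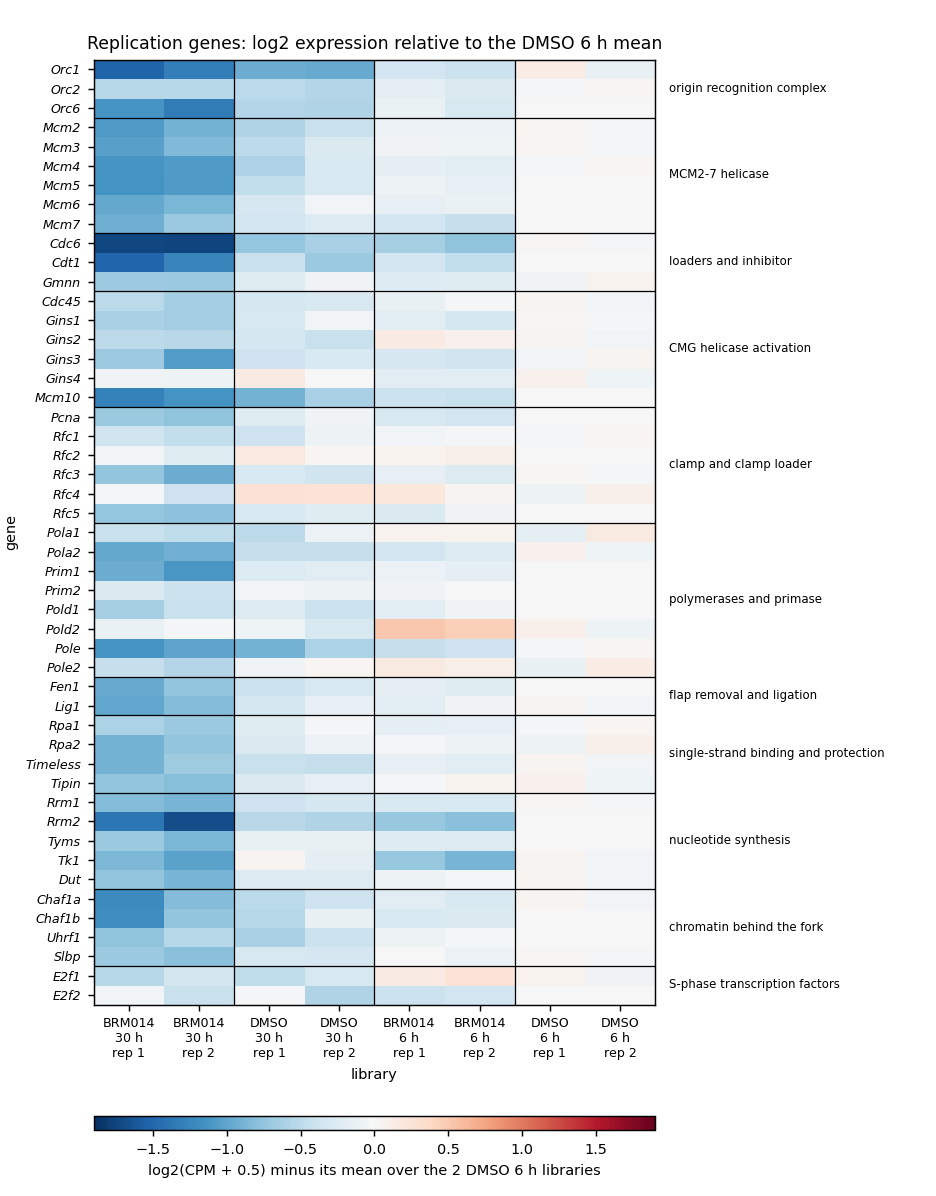
The 49 genes (rows, grouped by role) in the 8 libraries (columns), as log2(CPM + 0.5) minus the mean over the 2 DMSO 6 h libraries, on a linear colour scale from blue (lower) to red (higher). Most rows are darkest blue in the BRM014 30 h columns, with Cdc6 and Rrm2 the deepest, while Pold2 and E2f1 are among the few with red cells in BRM014 6 h.

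At 30 h, 37 of the 49 genes fell with BRM014 against DMSO and none rose, which is 75.5% of the members, against 19.1% of all tested genes lower and 16.8% higher. These calls are from edgeR's quasi-likelihood test with Benjamini-Hochberg adjusted p below 0.05 over all tested genes, as is every adjusted p here; each error after ± is the standard error of the log2 fold change. At an unadjusted p below 0.05, 39 were lower and none higher, against 2811 and 2557 of the 11835 tested genes. DESeq2 and limma-voom called no member higher either, against 15.7% and 17.2% of all tested genes. The median log2 fold change of the members was -0.50, against -0.00457 for all tested genes. The BRM014 30 h libraries lay below both DMSO 30 h libraries for 42 members, as they did for 33.9% of all tested genes, and above both for none, against 32.9% of all tested genes.

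All 6 helicase subunits fell at 30 h, by 0.49 to 0.74 on the log2 scale. Mcm5 was at 195 and 204 CPM in BRM014 30 h and 309 and 347 CPM in DMSO 30 h. At 6 h, Mcm5 was at 401 and 385 CPM in BRM014 and 428 and 430.2 CPM in DMSO. Mcm5 in BRM014 thus lay far below vehicle at 30 h and close to it at 6 h. Mcm6 was at 229.7 and 246 CPM in BRM014 30 h and 359 and 435 CPM in DMSO 30 h. At 6 h, Mcm6 was at 404 and 414 CPM in BRM014 and 452 and 447 CPM in DMSO. Mcm6 had the same order, and no group of either gene overlapped with its vehicle. The 30 h log2 fold change was -0.74 ± 0.10 for Mcm6 (adjusted p = 8.88e-05) and -0.72 ± 0.09 for Mcm5 (adjusted p = 4.65e-05). Mcm2 was at 198 and 224 CPM in BRM014 30 h and 280.4 and 312 CPM in DMSO 30 h. At 6 h, Mcm2 was at 388 and 388 CPM in BRM014 and 431 and 407 CPM in DMSO. Its fall at 30 h, -0.49 ± 0.10 (adjusted p = 0.00149), was the smallest of the 6. Mcm3 (-0.54 ± 0.10) and Mcm4 (-0.66 ± 0.10) lay between. Mcm7 was at 184 and 215 CPM in BRM014 30 h and 274 and 292 CPM in DMSO 30 h. At 6 h, Mcm7 was at 273 and 258 CPM in BRM014 and 351 and 351 CPM in DMSO, so its groups were apart at both times (-0.50 ± 0.10 at 30 h, adjusted p = 0.0013).

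Of the licensing genes, the loaders Cdc6 and Cdt1 had the lowest 30 h log2 fold changes. Cdc6, which with Cdt1 recruits the helicase to the origin recognition complex, was at 35.8 and 35.1 CPM in BRM014 30 h and 71.7 and 77.8 CPM in DMSO 30 h. At 6 h, Cdc6 was at 76.9 and 70.0 CPM in BRM014 and 122 and 117 CPM in DMSO. Its level in BRM014 6 h was thus near that in DMSO 30 h, and BRM014 30 h stood apart below both (30 h log2 fold change -1.08 ± 0.10, adjusted p = 2.82e-06). Cdt1, the partner of Cdc6, fell by 0.82 ± 0.12 on the log2 scale (adjusted p = 0.000117). Gmnn encodes geminin, which binds Cdt1 and blocks repeated licensing, and it fell by 0.55 ± 0.10 (adjusted p = 0.00072).

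Among the 3 genes of the origin recognition complex, Orc1 and Orc6 fell at 30 h and Orc2 did not pass. Orc1 was at 13.4 and 15.5 CPM in BRM014 30 h and 20.3 and 19.9 CPM in DMSO 30 h. At 6 h, Orc1 was at 30.5 and 29.4 CPM in BRM014 and 43.5 and 35.5 CPM in DMSO. Every treated Orc1 library was below its vehicle at both times. Orc6 was at 56.8 and 49.1 CPM in BRM014 30 h and 84.8 and 83.9 CPM in DMSO 30 h. At 6 h, Orc6 was at 114 and 101 CPM in BRM014 and 124 and 125 CPM in DMSO. The Orc6 groups were also apart, by more at 30 h. Orc2 was at 97.6 and 96.9 CPM in BRM014 30 h and 99.4 and 96.1 CPM in DMSO 30 h. At 6 h, Orc2 was at 125 and 117 CPM in BRM014 and 138 and 146 CPM in DMSO. The Orc2 libraries of the 30 h groups overlapped, while those of Orc1 and Orc6 did not. The 30 h log2 fold changes were -0.47 ± 0.14 for Orc1 (adjusted p = 0.0164), -0.67 ± 0.10 for Orc6 (adjusted p = 0.000224) and -0.01 for Orc2, whose 95% interval ran from -0.20 to 0.19.

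Of the 6 genes that turn the loaded helicase into an active one, Gins1, Gins3 and Mcm10 fell at 30 h and Cdc45, Gins2 and Gins4 did not pass. Cdc45, a subunit of the active helicase, was at 55.9 and 51.2 CPM in BRM014 30 h and 64.0 and 64.5 CPM in DMSO 30 h. At 6 h, Cdc45 was at 72.3 and 78.6 CPM in BRM014 and 83.1 and 77.3 CPM in DMSO. The 30 h groups of Cdc45 did not overlap, but its log2 fold change of -0.26 ± 0.10 missed the threshold (adjusted p = 0.054). Gins1, a subunit of the GINS complex, was at 30.3 and 29.6 CPM in BRM014 30 h and 37.9 and 45.1 CPM in DMSO 30 h. At 6 h, Gins1 was at 40.5 and 37.0 CPM in BRM014 and 48.0 and 45.8 CPM in DMSO. The treated Gins1 libraries were the lower ones at both times. Mcm10, which works at helicase activation, was at 52.2 and 58.1 CPM in BRM014 30 h and 68.5 and 82.8 CPM in DMSO 30 h. At 6 h, Mcm10 was at 96.4 and 94.8 CPM in BRM014 and 128 and 127 CPM in DMSO. Both were lower in every treated library at 30 h, with log2 fold changes of -0.47 ± 0.12 for Gins1 (adjusted p = 0.00635) and -0.46 ± 0.11 for Mcm10 (adjusted p = 0.00514).

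At the fork, Pcna, Rfc3, Rfc4 and Rfc5 fell at 30 h and Rfc1 and Rfc2 did not pass. Pcna, the sliding clamp that holds polymerases on DNA, was at 212 and 205 CPM in BRM014 30 h and 297 and 332 CPM in DMSO 30 h. At 6 h, Pcna was at 282 and 271 CPM in BRM014 and 345 and 350.1 CPM in DMSO. Its groups were apart at both times, and the 30 h log2 fold change was -0.59 ± 0.09 (adjusted p = 0.000227). The clamp loader subunits that fell did so by 0.47 to 0.52 on the log2 scale, while Rfc1 (-0.19 ± 0.10) and Rfc2 (-0.25 ± 0.10) had adjusted p of 0.176 and 0.0632.

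The 8 polymerase and primase genes did not move as 1 group at 30 h: Pola2, Prim1, Prim2, Pole and Pole2 fell, and Pola1, Pold1 and Pold2 did not pass. Prim1, the catalytic subunit of primase, was at 64.7 and 57.5 CPM in BRM014 30 h and 104 and 108 CPM in DMSO 30 h (30 h log2 fold change -0.79 ± 0.10, adjusted p = 2.73e-05). At 6 h, Prim1 was at 115 and 111 CPM in BRM014 and 124 and 125 CPM in DMSO. The Prim1 groups were apart at both times, widely so at 30 h. Prim2, the other primase subunit, was at 59.9 and 54.2 CPM in BRM014 30 h and 70.0 and 67.9 CPM in DMSO 30 h (30 h log2 fold change -0.27 ± 0.10, adjusted p = 0.041). At 6 h, Prim2 was at 69.1 and 72.3 CPM in BRM014 and 72.7 and 72.0 CPM in DMSO. The 2 primase subunits thus differed in size of change, with Prim1 well below vehicle and Prim2 slightly below it; the difference between the genes was not tested.

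Pola2, the accessory subunit of polymerase alpha, was at 127 and 131 CPM in BRM014 30 h and 183 and 183 CPM in DMSO 30 h. At 6 h, Pola2 was at 194 and 208 CPM in BRM014 and 262 and 236 CPM in DMSO. Its log2 fold change at 30 h was -0.50 ± 0.09 (adjusted p = 0.000895), against -0.16 ± 0.13 for Pola1, the catalytic subunit (adjusted p = 0.393). Pole, the catalytic subunit of polymerase epsilon, was at 83.2 and 90.4 CPM in BRM014 30 h and 97.5 and 119.8 CPM in DMSO 30 h. At 6 h, Pole was at 134 and 138 CPM in BRM014 and 177 and 186 CPM in DMSO. Pole fell by 0.32 ± 0.11 on the log2 scale at 30 h (adjusted p = 0.0308), and its accessory subunit Pole2 by 0.50 ± 0.13 (adjusted p = 0.0081). Pole2 was at 22.3 and 20.4 CPM in BRM014 30 h and 28.9 and 31.2 CPM in DMSO 30 h. At 6 h, Pole2 was at 34.2 and 32.8 CPM in BRM014 and 27.5 and 33.4 CPM in DMSO, so its groups were apart at 30 h and overlapped at 6 h.

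Pold2, an accessory subunit of polymerase delta, was at 90.4 and 96.1 CPM in BRM014 30 h and 92.9 and 79.7 CPM in DMSO 30 h. At 6 h, Pold2 was at 141 and 136 CPM in BRM014 and 105 and 92.5 CPM in DMSO. It stood above vehicle in both treated libraries at 6 h and overlapped with vehicle at 30 h, where its log2 fold change was 0.11 ± 0.11 (adjusted p = 0.429). The catalytic subunit Pold1 had -0.20 ± 0.10 at 30 h (adjusted p = 0.148).

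The genes of flap removal, ligation and single-strand binding all fell at 30 h. Fen1, the flap nuclease of lagging-strand maturation, was at 131 and 151 CPM in BRM014 30 h and 193 and 207 CPM in DMSO 30 h (30 h log2 fold change -0.50 ± 0.10, adjusted p = 0.00126). At 6 h, Fen1 was at 225 and 218 CPM in BRM014 and 255 and 255 CPM in DMSO. Fen1 was below vehicle in every treated library. Lig1, the ligase that seals lagging-strand fragments, was at 131 and 147 CPM in BRM014 30 h and 208 and 235 CPM in DMSO 30 h (30 h log2 fold change -0.67 ± 0.10, adjusted p = 0.000212). At 6 h, Lig1 was at 227 and 250.2 CPM in BRM014 and 271 and 251 CPM in DMSO. Lig1 too was well apart from vehicle at 30 h and near it at 6 h. Rpa2, a subunit of the single-strand binding protein RPA, was at 39.5 and 44.0 CPM in BRM014 30 h and 61.5 and 69.0 CPM in DMSO 30 h (30 h log2 fold change -0.64 ± 0.11, adjusted p = 0.000559). At 6 h, Rpa2 was at 73.0 and 69.7 CPM in BRM014 and 69.5 and 79.4 CPM in DMSO. The Rpa2 groups were apart at 30 h and overlapped at 6 h. Timeless and Tipin encode partner proteins that protect the fork. Timeless was at 59.4 and 69.6 CPM in BRM014 30 h and 82.5 and 81.1 CPM in DMSO 30 h. At 6 h, Timeless was at 99.9 and 95.1 CPM in BRM014 and 115 and 107 CPM in DMSO. Timeless was lower in the treated libraries at both times. Tipin was at 67.1 and 64.1 CPM in BRM014 30 h and 93.0 and 101 CPM in DMSO 30 h. At 6 h, Tipin was at 111 and 118 CPM in BRM014 and 119 and 107 CPM in DMSO. The 30 h log2 fold change was -0.57 ± 0.10 for Tipin (adjusted p = 0.000575) and -0.34 ± 0.10 for Timeless (adjusted p = 0.0192), and at 6 h only the Tipin groups overlapped.

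All 5 nucleotide synthesis genes fell at 30 h. Rrm2, the small subunit of ribonucleotide reductase, was at 242 and 195 CPM in BRM014 30 h and 439 and 424 CPM in DMSO 30 h (30 h log2 fold change -0.98 ± 0.11, adjusted p = 9.87e-06). At 6 h, Rrm2 was at 380.3 and 364 CPM in BRM014 and 623 and 635 CPM in DMSO. Rrm2 was lowest in BRM014 30 h and highest in DMSO 6 h. Rrm1, the large subunit of the same enzyme, was at 337 and 323 CPM in BRM014 30 h and 452 and 473 CPM in DMSO 30 h (30 h log2 fold change -0.49 ± 0.08, adjusted p = 0.000625). At 6 h, Rrm1 was at 490.1 and 486 CPM in BRM014 and 604 and 589 CPM in DMSO. Both subunits were below vehicle in every treated library at both times. Tk1, the thymidine salvage kinase, was at 98.0 and 87.6 CPM in BRM014 30 h and 184 and 155 CPM in DMSO 30 h (30 h log2 fold change -0.87 ± 0.11, adjusted p = 4.5e-05). At 6 h, Tk1 was at 107 and 95.7 CPM in BRM014 and 184 and 169.9 CPM in DMSO. Tk1 thus split the libraries by treatment and not by time. Tyms, thymidylate synthase, was at 79.0 and 71.0 CPM in BRM014 30 h and 117 and 118 CPM in DMSO 30 h (30 h log2 fold change -0.65 ± 0.09, adjusted p = 0.000114). At 6 h, Tyms was at 109 and 109 CPM in BRM014 and 130.2 and 129 CPM in DMSO. Tyms was lowest in BRM014 30 h, and its other treated libraries were below their vehicle too. Dut, which removes dUTP, was at 128 and 117 CPM in BRM014 30 h and 180.0 and 181 CPM in DMSO 30 h (30 h log2 fold change -0.56 ± 0.09, adjusted p = 0.000404). At 6 h, Dut was at 201 and 212 CPM in BRM014 and 223 and 207 CPM in DMSO.

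Of the genes that supply or copy chromatin behind the fork, Chaf1a, Chaf1b and Slbp fell at 30 h and Uhrf1 did not pass. Slbp, which binds the stem-loop of replication-dependent histone mRNAs, was at 67.6 and 63.8 CPM in BRM014 30 h and 89.7 and 88.4 CPM in DMSO 30 h (30 h log2 fold change -0.44 ± 0.09, adjusted p = 0.0025). At 6 h, Slbp was at 111 and 102 CPM in BRM014 and 112 and 109 CPM in DMSO. Chaf1a and Chaf1b, subunits of the histone chaperone CAF-1, had log2 fold changes of -0.56 ± 0.12 (adjusted p = 0.00251) and -0.63 ± 0.14 (adjusted p = 0.00431). Uhrf1, which recruits the maintenance DNA methyltransferase to hemimethylated DNA, was at 249 and 291 CPM in BRM014 30 h and 276 and 321 CPM in DMSO 30 h. At 6 h, Uhrf1 was at 396 and 412 CPM in BRM014 and 428 and 422 CPM in DMSO. Its 30 h groups overlapped, and its log2 fold change of -0.15 had a 95% interval from -0.37 to 0.08 (adjusted p = 0.298).

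Neither transcription factor passed at 30 h. E2f1, an activator of S-phase genes, was at 52.4 and 59.9 CPM in BRM014 30 h and 54.4 and 61.9 CPM in DMSO 30 h, and at 85.2 and 91.4 CPM in BRM014 6 h and 80.4 and 72.6 CPM in DMSO 6 h. E2f1 was lower in both 30 h groups than in both 6 h groups. E2f2, another activator of the family, was at 40.1 and 30.8 CPM in BRM014 30 h and 40.9 and 27.7 CPM in DMSO 30 h, and at 31.1 and 32.1 CPM in BRM014 6 h and 41.1 and 41.9 CPM in DMSO 6 h. The 30 h groups overlapped for both, with log2 fold changes of -0.05 (95% interval -0.29 to 0.19, adjusted p = 0.757) for E2f1 and 0.05 (95% interval -0.31 to 0.41, adjusted p = 0.854) for E2f2.

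**Figure D2:**
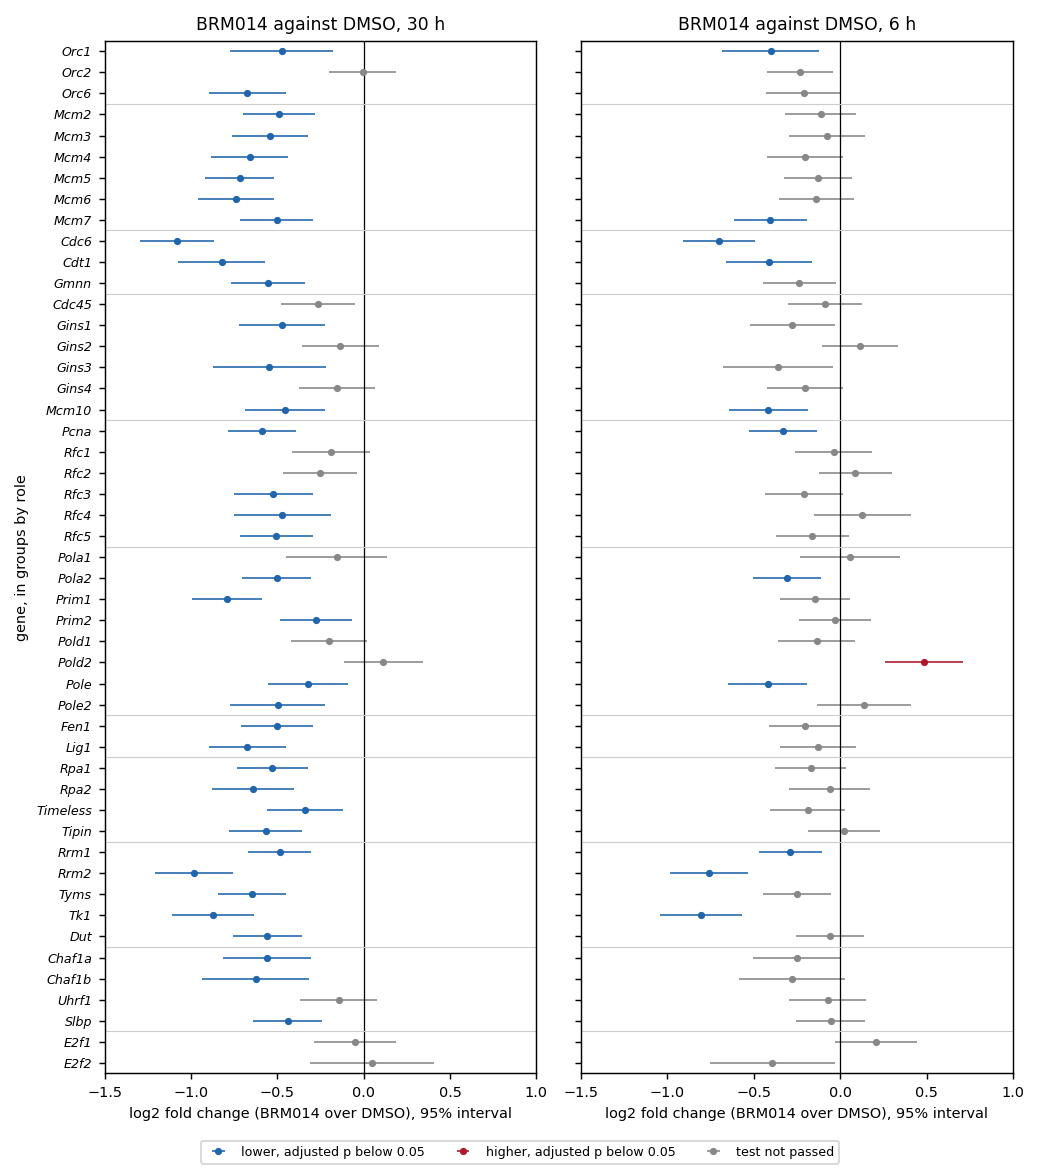
Log2 fold change of BRM014 over DMSO with its 95% interval (horizontal axis) for each of the 49 genes (rows, grouped by role), at 30 h on the left and 6 h on the right. Blue points are lower and red points higher at adjusted p below 0.05: 37 are blue at 30 h, and 11 are blue and Pold2 is red at 6 h.

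When libraries were scaled on ribosomal protein and oxidative phosphorylation genes in place of TMM, 22 members were lower at 30 h and Pold2 was higher (log2 fold change 0.31, adjusted p = 0.0376). That scaling moved the median of all genes by 0.18 on the log2 scale, and 10.9% of all tested genes were lower and 28.1% higher. With scaling on ribosomal protein genes alone, 28 of the 37 calls were kept and 9 were lost. There, 12.2% of all tested genes were lower and 18.3% higher. Of the 37 calls, 10 were lost when 1 library was left out: Chaf1b, Orc1, Pole and Timeless without BRM014 30 h replicate 1 (adjusted p 0.0543 to 0.161), Gins3, Pole, Pole2, Prim2 and Rfc4 without BRM014 30 h replicate 2 (0.0607 to 0.238), Orc1, Prim2 and Timeless without DMSO 30 h replicate 1 (0.0533 to 0.138), Gins1, Gins3, Mcm10, Pole and Prim2 without DMSO 30 h replicate 2 (0.0537 to 0.275), Pole and Prim2 without BRM014 6 h replicate 1 (0.0546 to 0.0712) or replicate 2 (0.0536 to 0.0706), and Prim2 without DMSO 6 h replicate 1 (0.0542) or replicate 2 (0.0586).

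At 6 h, 11 members fell with BRM014 and 1 rose, against 14.4% of all tested genes lower and 9.35% higher; the members' shares were 22.4% and 2.04%. The median member was at -0.19, against -0.01 for all tested genes. Treated libraries lay below both vehicle libraries for 35 members and above both for 4, as they did for 34.4% and 30.8% of all tested genes. The falls were led by Tk1 (-0.80 ± 0.11, adjusted p = 0.000156), Rrm2 (-0.76 ± 0.10, adjusted p = 0.000156) and Cdc6 (-0.70 ± 0.10, adjusted p = 0.000162), which are a salvage kinase, a ribonucleotide reductase subunit and a helicase loader. The other 8 were Pole, Mcm10, Cdt1, Mcm7, Orc1, Pcna, Pola2 and Rrm1, between -0.42 and -0.29. Rrm1 (-0.29 ± 0.08, adjusted p = 0.0243) and Pola2 (-0.31 ± 0.09, adjusted p = 0.0259) were nearest to 0 in log2 fold change, and Orc1 (-0.40 ± 0.13, adjusted p = 0.0398) had the highest adjusted p.

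By role, at 6 h, 3 of 5 nucleotide synthesis genes, 2 of 3 loading genes (Cdc6 and Cdt1), 1 of 3 origin recognition genes (Orc1) and 2 of 8 polymerase and primase genes (Pole and Pola2) fell; differences between roles were not tested. Of the others, 1 of 6 helicase subunits (Mcm7), 1 of 6 activation genes (Mcm10) and 1 of 6 clamp genes (Pcna) fell, and none of the 2 flap and ligation, 4 single-strand binding or 4 chromatin genes passed in edgeR. At an unadjusted p below 0.05, 17 members of the 49 were lower and 1 higher, against 2343 and 1809 of the 11835 tested genes. Pold2 was the riser, with a log2 fold change of 0.48 ± 0.10 (adjusted p = 0.00439). The values of E2f1 (0.21 ± 0.11, adjusted p = 0.198) and E2f2 (-0.39 ± 0.17, adjusted p = 0.111) did not pass.

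Cdc6, Rrm2 and Tk1 passed at 6 h under all 18 alternatives. The count of lower members was 3 when libraries were scaled on ribosomal protein genes, 7 with oxidative phosphorylation genes added and 6 with library totals. The 8 other falls also depended on single libraries: 7 were lost without BRM014 6 h replicate 1 (adjusted p 0.0675 to 0.217), all 8 without BRM014 6 h replicate 2 (0.0752 to 0.218) or DMSO 6 h replicate 1 (0.0515 to 0.398), and Cdt1, Mcm10, Pcna, Pole and Rrm1 without DMSO 6 h replicate 2 (0.0505 to 0.0694), where the rise of Pold2 also missed the threshold (log2 fold change 0.39, adjusted p = 0.0587).

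All 11 members that fell at 6 h were also among the 37 that fell at 30 h; the comparisons share no library. Over the 49 members, the log2 fold changes at 30 h and 6 h had a Pearson r of 0.58 and a Spearman rho of 0.41, against an r of 0.71 over all tested genes, as a description of genes measured in the same libraries.

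Whether the effect of BRM014 differed between times was tested as the 30 h log2 fold change minus the 6 h one. It was lower for 7 members and higher for none, which is 14.3%, against 2.59% of all tested genes lower and 3.89% higher. At an unadjusted p below 0.05, 23 members were lower and none higher, against 1062 and 1306 of the 11835 tested genes. DESeq2 called 11 members lower and none higher, against 3.4% and 4.67% of all tested genes. The 7 genes were Prim1 (-0.65 ± 0.13, adjusted p = 0.011), Mcm6 (-0.60 ± 0.14, adjusted p = 0.0232), Mcm5 (-0.59 ± 0.13, adjusted p = 0.0148), Tipin (-0.59 ± 0.14, adjusted p = 0.0217), Rpa2 (-0.58 ± 0.16, adjusted p = 0.0406), Lig1 (-0.54 ± 0.14, adjusted p = 0.0392) and Dut (-0.50 ± 0.13, adjusted p = 0.0366). None of these 7 passed at 6 h, where their log2 fold changes lay between -0.14 and 0.02. The median difference of the 49 members was -0.31, against 0.00768 for all tested genes. Of the 72 other replication genes tested, described below, 1 was lower and 1 higher (1.39% each), with a median of -0.09. Of 28 listed mitosis genes 3 were lower and none higher (10.7%, median -0.23). Of 25 oxidative phosphorylation genes 1 was lower and none higher (4%), but their median of -0.33 was near that of the members.

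The members with the lowest values at both times were not among these 7. For Tk1 the difference was -0.07 ± 0.16 (95% interval -0.40 to 0.27), for Rrm2 -0.23 ± 0.15 (95% interval -0.54 to 0.09) and for Cdc6 -0.38 ± 0.14 (95% interval -0.68 to -0.08, adjusted p = 0.131). Pole2 (-0.64 ± 0.18, adjusted p = 0.052) and Rfc4 (-0.60 ± 0.18, adjusted p = 0.0742) had differences as low as those of the 7 but larger errors. The 25 oxidative phosphorylation genes used in 1 of the scalings below all had differences below 0 themselves. With them in the scaling, the median difference of all tested genes moved to 0.20. With scaling on ribosomal protein genes, with or without oxidative phosphorylation genes, none of the 7 passed (adjusted p 0.0865 to 0.253), and none passed without BRM014 6 h replicate 1 (0.0642 to 0.164). At least 1 of the 7 was lost without each other library: 6 without BRM014 30 h replicate 2 (0.0572 to 0.152) or BRM014 6 h replicate 2 (0.0604 to 0.19), 5 without DMSO 6 h replicate 2 (0.0519 to 0.135), 4 without DMSO 6 h replicate 1 (0.0551 to 0.141), 3 without BRM014 30 h replicate 1 (0.075 to 0.121), 2 without DMSO 30 h replicate 2 (0.0757 to 0.0809) and 1 without DMSO 30 h replicate 1 (0.053).

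**Figure D3:**
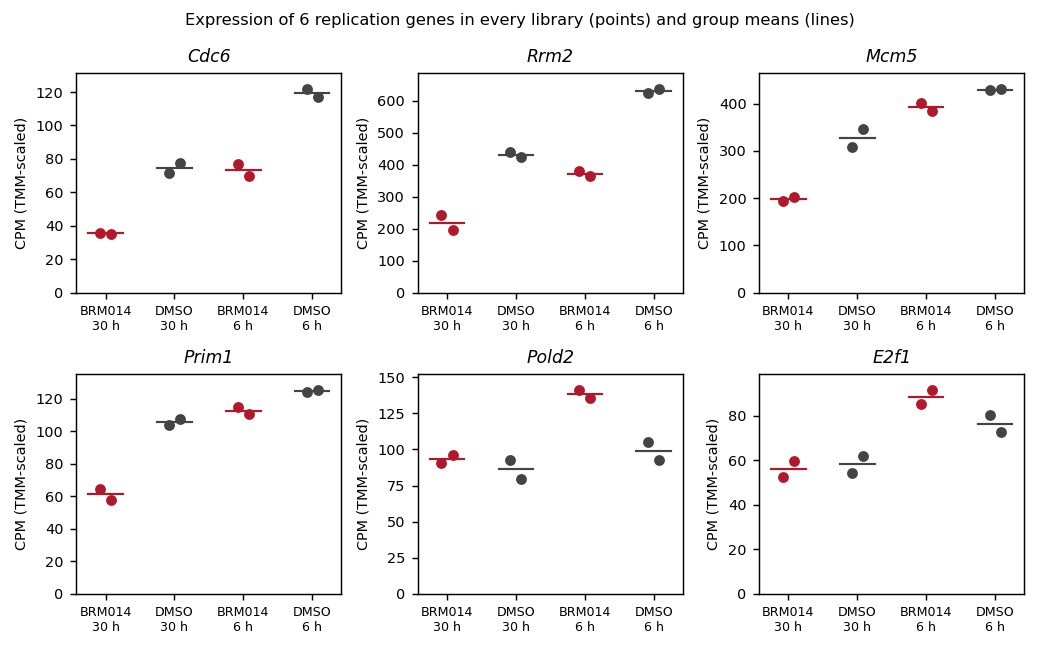
CPM (vertical axis, from 0) of 6 of the genes in every library, with each point 1 library, each line the mean of the 2 libraries of a group, red for BRM014 and grey for DMSO. Mcm5 and Prim1 are close to vehicle at 6 h and well below it at 30 h, Cdc6 and Rrm2 are below vehicle at both times, Pold2 is above vehicle at 6 h, and E2f1 is lower in both 30 h groups than in both 6 h groups.

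In vehicle alone, 26 of the 49 members were lower at 30 h than at 6 h and none was higher. This is 53.1%, against 17.2% of all tested genes lower and 18% higher. At an unadjusted p below 0.05, 34 were lower and none higher, against 2669 and 2752 of the 11835 tested genes. No member was higher by DESeq2 or limma-voom, against 17.2% and 17.6% of all tested genes. The median log2 fold change over time in DMSO was -0.32, against 0.00654 for all tested genes. The 30 h libraries lay below both 6 h libraries for 42 members and above both for 2, against 32.9% and 34.8% of all tested genes. All 3 origin recognition genes, 5 of 6 helicase subunits, 2 of 3 loading genes (Cdc6 and Cdt1) and 3 of 6 activation genes, Mcm10 among them, fell with time. Of the 6 clamp and clamp loader genes, 1 fell. Differences between roles were not tested. Orc1 had the lowest value (-0.97 ± 0.13, adjusted p = 0.000194), followed by Mcm10 (-0.75 ± 0.11, adjusted p = 0.000246) and Pole (-0.74 ± 0.11, adjusted p = 0.000267). Dut (-0.25 ± 0.09, adjusted p = 0.0476), Mcm7 (-0.31 ± 0.10, adjusted p = 0.0249) and Slbp (-0.31 ± 0.09, adjusted p = 0.0191) were the calls nearest to 0 in log2 fold change. Among the other genes with values given in full, Cdc6 fell by 0.67 ± 0.10, Rrm2 by 0.54 ± 0.10, Uhrf1 by 0.51 ± 0.10, Mcm2 by 0.50 ± 0.10, E2f1 by 0.39 ± 0.11, Fen1 by 0.35 ± 0.10 and Cdc45 by 0.32 ± 0.10 on the log2 scale.

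Under BRM014, 44 members were lower at 30 h than at 6 h and none was higher in edgeR. This is 89.8%, against 16.9% of all tested genes lower and 19.6% higher. DESeq2 and limma-voom called no member higher either, against 18.4% and 19.4% of all tested genes. At an unadjusted p below 0.05, 46 were lower and none higher, against 2555 and 2874 of the 11835 tested genes. The median was -0.64, against 0.00925 for all tested genes, and the 30 h libraries lay below both 6 h libraries for 46 members and above both for 1, against 34.9% and 36.8% of all tested genes. Cdc6 (-1.05 ± 0.10, adjusted p = 1e-05), Orc1 (-1.05 ± 0.14, adjusted p = 0.000112) and Orc6 (-1.03 ± 0.10, adjusted p = 1.71e-05) had the lowest values, and Gins1 (-0.37 ± 0.12, adjusted p = 0.0241), Orc2 (-0.31 ± 0.09, adjusted p = 0.0155) and Prim2 (-0.31 ± 0.10, adjusted p = 0.0227) were the calls nearest to 0. The 26 members that fell in vehicle all fell under BRM014 too, and 18 more passed under BRM014 alone; the test of the difference between these changes over time is the one given above and passed for 7 members. The 2 time courses share no library, and over the 49 members their log2 fold changes had a Pearson r of 0.59 and a Spearman rho of 0.57, against an r of 0.50 over all tested genes. Tk1, Rfc4, Gins4, Rfc2 and E2f2 passed in neither.

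**Figure D4:**
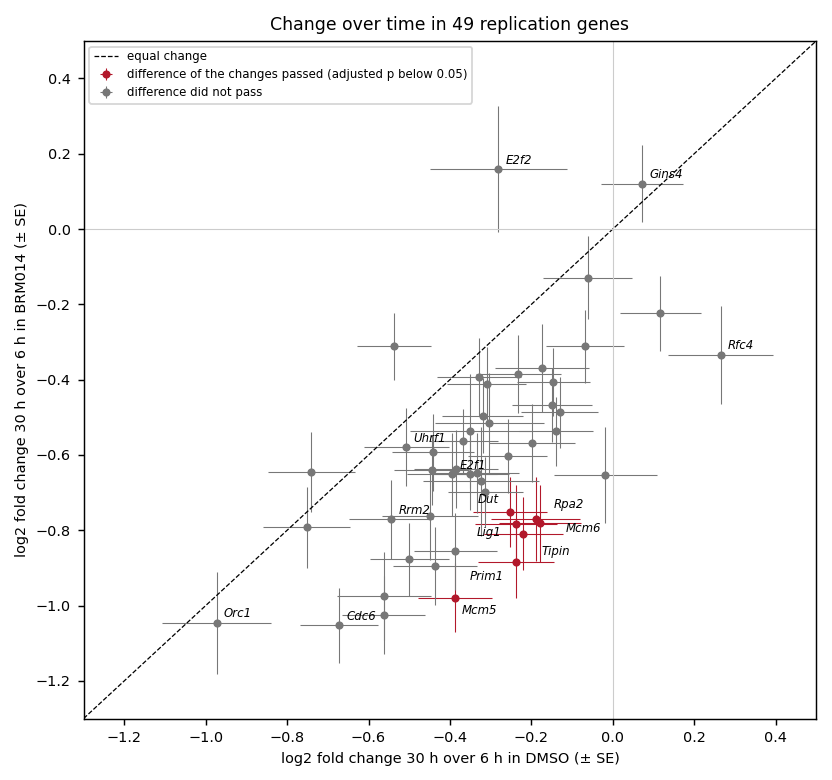
Log2 fold change of 30 h over 6 h under BRM014 (vertical axis) against that in DMSO (horizontal axis) for the 49 genes, with bars of 1 standard error and a dashed line of equal change. Most genes lie below the line, and the 7 red ones are those for which the difference between the changes passed at adjusted p below 0.05.

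Of the 44 calls over time under BRM014, 31 were kept when libraries were scaled on ribosomal protein genes, with Cdc45, Chaf1b, Pcna and Rpa1 among the 13 lost. With oxidative phosphorylation genes added, 34 were kept. Of all tested genes, 5.8% and 8.11% were lower under these scalings. The count of members that fell with time in DMSO was 10 with ribosomal protein scaling, against 7.73% of all tested genes. That scaling moved the median of all genes in DMSO by 0.12 on the log2 scale. Without DMSO 6 h replicate 1 it was 14, and 12 calls were lost, Cdc45, Chaf1a, Dut, E2f1, Fen1, Gins2, Mcm3, Mcm7, Pold1, Rfc3, Slbp and Timeless (adjusted p 0.0634 to 0.287). Part of these 12 were also lost without DMSO 30 h replicate 1 (7 calls, adjusted p 0.0502 to 0.111), DMSO 30 h replicate 2 (7 calls, 0.0522 to 0.172) or DMSO 6 h replicate 2 (4 calls, 0.0513 to 0.0798), and Dut also without BRM014 6 h replicate 1 (0.0793) or replicate 2 (0.0799). Under BRM014, the calls lost without 1 library were among Gins1, Gins3, Mcm7, Orc2, Pola1, Pold1, Prim2 and Rfc1, with 4 without BRM014 30 h replicate 1 (adjusted p 0.0592 to 0.0926), 6 without BRM014 30 h replicate 2 (0.0577 to 0.137), 7 without BRM014 6 h replicate 1 (0.0566 to 0.179) and 5 without BRM014 6 h replicate 2 (0.0516 to 0.139).

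The BRM014 effect at 30 h and the change over time in vehicle share the DMSO 30 h libraries, and the effect at 6 h and that change share the DMSO 6 h libraries, so their values are given side by side and the difference between them was not tested. Of the 49 members, 20 were lower both with BRM014 at 30 h and over time in DMSO, 17 were lower with BRM014 at 30 h and did not pass over time, 6 were lower over time and did not pass with BRM014, and 6 passed in neither. Tk1 had inhibitor effects of -0.87 at 30 h and -0.80 at 6 h on the log2 scale and -0.06 ± 0.11 over time in DMSO. E2f1, Orc2 and Uhrf1 were among the 6 lower over time alone: inhibitor effects of -0.05, -0.01 and -0.15 at 30 h, none of which passed, stood beside falls of 0.39, 0.54 and 0.51 over time in DMSO. Cdc6 and Rrm2 were lower in both ways. Prim1 had -0.79 ± 0.10 with BRM014 at 30 h, -0.14 ± 0.09 with BRM014 at 6 h and -0.24 ± 0.09 with time in DMSO (adjusted p = 0.0645), and Tyms had -0.65 ± 0.09, -0.25 ± 0.09 and -0.14 ± 0.09 in the same comparisons, of which only the first passed for either gene. Slbp, Fen1 and Mcm2 fell with BRM014 at 30 h and with time in DMSO and did not pass at 6 h (-0.05 ± 0.09, -0.20 ± 0.10 and -0.11 ± 0.10).

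Another 73 replication genes that are not on the list were read from the same fit, and 72 were tested. At 30 h, 24 of them were lower with BRM014 and 6 higher (33.3% and 8.33%, against 19.1% and 16.8% of all tested genes), with a median of -0.18. At 6 h 12 were lower and 2 higher (16.7% and 2.78%, against 14.4% and 9.35%), a share of lower genes near that of all tested genes, with a median of -0.08. Over time in DMSO 38 were lower and 1 higher (52.8% and 1.39%, against 17.2% and 18%), and over time under BRM014 50 were lower and 3 higher (69.4% and 4.17%, against 16.9% and 19.6%), with medians of -0.33 and -0.44. The 4 lowest p-values among the 30 h falls belonged to E2f8 (-0.98 ± 0.10, adjusted p = 8.86e-06), Tfdp2 (-1.24 ± 0.14, adjusted p = 1.82e-05), Nasp (-0.71 ± 0.09, adjusted p = 3.64e-05) and Wdhd1 (-0.77 ± 0.10, adjusted p = 6.63e-05). E2f8 is a repressor of the E2F family, Tfdp2 a DNA-binding partner of E2F proteins, Nasp a histone chaperone and Wdhd1 a fork protein that binds polymerase alpha. E2f8 was at 47.1 and 43.7 CPM in BRM014 30 h and 86.8 and 91.8 CPM in DMSO 30 h, and at 106 and 95.4 CPM in BRM014 6 h and 175 and 157 CPM in DMSO 6 h. Nasp was at 135 and 136 CPM in BRM014 30 h and 215 and 227 CPM in DMSO 30 h, and at 259 and 257 CPM in BRM014 6 h and 291 and 274 CPM in DMSO 6 h. Wdhd1 was at 34.2 and 35.6 CPM in BRM014 30 h and 56.1 and 63.0 CPM in DMSO 30 h, and at 84.8 and 77.8 CPM in BRM014 6 h and 108 and 108 CPM in DMSO 6 h. These 3 genes were lower in every treated library than in its vehicle at both times.

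Rrm2b (0.65 ± 0.13, adjusted p = 0.00135), E2f5 (0.63 ± 0.14, adjusted p = 0.00322), Cad (0.49 ± 0.11, adjusted p = 0.00355) and Shmt2 (0.58 ± 0.13, adjusted p = 0.00386) had the lowest p-values among the rises. Rrm2b encodes a p53-induced small subunit of ribonucleotide reductase, so the 2 small-subunit genes moved in opposite directions at 30 h: Rrm2b was at 43.5 and 37.6 CPM in BRM014 30 h and 24.7 and 26.7 CPM in DMSO 30 h, and at 29.5 and 34.4 CPM in BRM014 6 h and 24.0 and 26.3 CPM in DMSO 6 h. E2f5, a repressive member of the E2F family, was at 19.7 and 19.8 CPM in BRM014 30 h and 13.3 and 12.2 CPM in DMSO 30 h, and at 20.8 and 18.3 CPM in BRM014 6 h and 15.5 and 16.7 CPM in DMSO 6 h. Both were above vehicle in every treated library, and neither passed at 6 h (adjusted p 0.0681 for Rrm2b and 0.17 for E2f5). Cad, which starts pyrimidine synthesis, was at 269.6 and 339 CPM in BRM014 30 h and 215 and 217 CPM in DMSO 30 h, and at 458 and 434 CPM in BRM014 6 h and 419 and 379.8 CPM in DMSO 6 h. Shmt2, a mitochondrial enzyme of one-carbon metabolism, was at 325 and 438 CPM in BRM014 30 h and 273 and 238 CPM in DMSO 30 h, and at 299 and 287 CPM in BRM014 6 h and 393 and 341 CPM in DMSO 6 h. Cad was higher in the treated libraries at both times, and Shmt2 was higher at 30 h and lower at 6 h, where it did not pass (adjusted p = 0.0923).

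Among the listed E2F, Tfdp and retinoblastoma family genes, Tfdp2 had the lowest log2 fold change at 30 h. It was at 29.8 and 35.5 CPM in BRM014 30 h and 67.1 and 87.8 CPM in DMSO 30 h. At 6 h, It was at 41.7 and 34.9 CPM in BRM014 and 78.0 and 82.4 CPM in DMSO. Treated libraries were below vehicle at both times (-1.07 ± 0.14 at 6 h, adjusted p = 0.000113), while time in DMSO left its log2 fold change at -0.05 ± 0.14. E2f8 fell with BRM014 at 6 h (-0.72 ± 0.10, adjusted p = 0.000171) and with time in DMSO (-0.89 ± 0.10, adjusted p = 5.47e-05). Of the 11 genes in this group, 3 were lower and 1 higher with BRM014 at 30 h, and Rb1, the retinoblastoma gene, passed in none of the 5 comparisons.

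Per kilobase of exon (GENCODE M21, GRCm38), the levels in DMSO 6 h ran from 227 CPM per kb for Rrm2, 145 for Pcna and 125 for Mcm4 to 9.19 for Gins3 and 8.51 for E2f2. In BRM014 30 h Rrm2 was at 78.7 CPM per kb, below Pcna at 86.95, whereas it was above Pcna in the other 3 groups; this order was not tested. In GENCODE M21, 16 members share exon bases with a gene on the opposite strand, 8 of them over more than 10% of their exon bases. These 8 are Fen1 with Gm10143 (78.8%), Gins2 with Gse1 (67.3%), Chaf1a with Ubxn6 (52.5%), Orc2 with Nif3l1 (29.8%), Rfc2 with Lat2 (15.1%), Rfc4 with Eif4a2 (12.7%), Orc1 with Gm12743 (10.8%) and Rfc5 with Wsb2 (10.7%). The kit marks strand, but the strand setting of the counting is not given in the sources used here. The counts of these 16 genes may therefore include reads of their partners or lack reads of their own.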

How the data were processed

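Single reads of stranded total RNA libraries of NMuMG cells (8 libraries) were aligned and counted by the authors. Per the submitters' processing notes the build was mm9 and the tools were Subread, SAMtools 0.1.19 and featureCounts; the gene annotation, further versions and whether counting used strand are not given in the sources used here. The deposited values are whole-number counts per gene, not normalized, and every column was matched to a sample by its name.

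From these counts, edgeR 4.0.16 (R 4.3.3) kept 11835 of 21240 genes with filterByExpr, scaled libraries by TMM and fitted 1 quasi-likelihood model with 4 group means (4 residual degrees of freedom, biological coefficient of variation 9.3%). Each of 5 comparisons was tested two-sided with Benjamini-Hochberg adjustment over all tested genes and a threshold of 0.05. They were the inhibitor over vehicle at either time, the 30 h minus the 6 h value of that log2 fold change, and 30 h over 6 h in cells with vehicle or with inhibitor. Standard errors are the log2 fold change divided by the square root of F, and levels are TMM-scaled CPM. With 2 libraries a group no permutation test was run, since the smallest p it allows is 0.333. Replicate libraries had a Pearson r of log2 CPM from 0.993 to 0.996, and their counts differed by more than sampling noise (chi-square per degree of freedom from 6.72 to 17.9), so no library is a copy of another; this does not show that they came from separate cultures.

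Values per library are given for 14 genes fixed by role (Cdc6, Mcm2, Mcm5, Cdc45, Pcna, Prim1, Pole2, Fen1, Rrm2, Tyms, Uhrf1, Slbp, E2f1 and E2f2) and for the 3 lowest and 3 highest log2 fold changes among the members that passed in each comparison, and of the other replication genes for the 4 lowest p in each direction at 30 h. Tipin was given per library, and Tfdp2 described in full, after their values were seen. The members and all lists were chosen with earlier results of these data known. Alternatives were RLE factors, library totals, scaling on ribosomal protein genes with and without oxidative phosphorylation genes, no filter, a stricter filter, DESeq2 1.42.0, limma-voom 3.58.1, a replicate block, fits on the libraries of a comparison alone, and each library left out. Promoters are from RefSeq (GRCm38.p6) and exon lengths from GENCODE M21 (GRCm38); since the counts were made on mm9, these were matched by gene symbol and no coordinate was carried between builds.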

Additional observations from a re-analysis of the deposited data

Results flagged for a closer look

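For 7 members the effect of BRM014 at 30 h was tested to differ from that at 6 h (edgeR's quasi-likelihood interaction test, adjusted over all tested genes). All were lower, which is 14.3% of the members, against 2.59% of all tested genes lower and 3.89% higher. Of the 72 other replication genes tested, 1 was lower and 1 higher (1.39% each). None of the 7 passed with scaling on ribosomal protein genes, with or without oxidative phosphorylation genes, and the calls also depended on single libraries, as given above. The oxidative phosphorylation genes themselves had a median difference of -0.33, so scaling on them raised the difference of every gene. The difference of log2 fold changes, 30 h minus 6 h, was -0.647 for Prim1 (adjusted p = 0.011), -0.604 for Mcm6 (adjusted p = 0.0232), -0.591 for Mcm5 (adjusted p = 0.0148), -0.589 for Tipin (adjusted p = 0.0217), -0.581 for Rpa2 (adjusted p = 0.0406), -0.545 for Lig1 (adjusted p = 0.0392) and -0.499 for Dut (adjusted p = 0.0366).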

How the results depend on the processing

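No member changed direction while called under any alternative run. With library totals the median log2 fold change of the members was -0.469 at 30 h, -0.1042 at 6 h (6 lower), -0.3613 for the difference, -0.2289 over time in DMSO and -0.5981 over time under BRM014. With scaling on ribosomal protein genes it was -0.4054 at 30 h, -0.1431 at 6 h (3 lower), -0.2538 for the difference (0 lower), -0.1954 over time in DMSO (10 lower) and -0.4648 over time under BRM014. With oxidative phosphorylation genes added it was -0.3179 at 30 h (22 lower, 1 higher), -0.1148 for the difference (0 lower), -0.3889 over time in DMSO and -0.5166 over time under BRM014, and 7 were lower at 6 h. These scalings move all genes alike: relative to the median of all tested genes, the member median at 30 h stayed between -0.5006 and -0.4992 under TMM and both of the last 2. Of all tested genes, 10.2% were lower at 6 h and 7.73% over time in DMSO with ribosomal protein scaling. With oxidative phosphorylation genes added, 10.9% were lower and 28.1% higher at 30 h, and 12.7% were lower at 6 h. With library totals, 11.8% were lower at 6 h. The share of lower among all calls at 30 h was 53.2% with TMM, 40.0% with ribosomal protein scaling and 28.0% with oxidative phosphorylation genes added; at 6 h it was 60.7% with TMM and 45.1% with library totals; for the difference it was 40.0%, 25.4% and 13.7% with TMM and the 2 gene-based scalings; over time in DMSO it was 48.8% with TMM, 34.1% with library totals, 27.4% and 60.0% with the gene-based scalings; and over time under BRM014 46.3% with TMM, 18.4% and 25.2% with the gene-based scalings. Without the filter the 6 h median was -0.1683 and the difference gave 12 lower members (median -0.3378), against 3.77% of all genes in that fit. A stricter filter gave medians of -0.1666 at 6 h, -0.3305 for the difference and -0.2965 over time in DMSO. A fit of the 6 h libraries alone gave a median of -0.1699, and DESeq2 gave 11 lower members for the difference, against 3.4% of all tested genes. The causes of these shifts were not tested.

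Leaving out 1 library at a time, with the lone library assumed to vary like the other groups, the lower members numbered 32 to 36 at 30 h, 3 to 12 at 6 h (0 to 1 higher), 0 to 9 for the difference, 14 to 27 over time in DMSO and 37 to 45 over time under BRM014. The medians ran from -0.5447 to -0.456 at 30 h, -0.1934 to -0.1209 at 6 h, -0.3498 to -0.2771 for the difference, -0.3327 to -0.2898 over time in DMSO and -0.6467 to -0.596 over time under BRM014. Without DMSO 30 h replicate 1, the difference for E2f2 was 0.75. Relative to the median of all tested genes, the 6 h member median was -0.1658 without BRM014 6 h replicate 2 and -0.1393 without DMSO 6 h replicate 1.

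Across genes, deviations of same-numbered libraries had r from 0.1485 to 0.2549 in all pairs of groups except BRM014 30 h with DMSO 6 h. That pair had an r of -0.0001181. Over the members, r ran from -0.3062 to 0.3717. The labels do not say what the replicate numbers mean, so the main fit did not use them as pairs. Whether same-numbered libraries share a replicate effect was not tested. With a replicate block the lower members numbered 39 at 30 h, 13 at 6 h, 12 for the difference, 31 over time in DMSO and 45 over time under BRM014. The block raised the share of lower genes among all tested genes too, to 21.5%, 16.9%, 4.32%, 20.3% and 19.3% in these comparisons. With 2 libraries a group, members near the threshold depend on single libraries at these depths.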

Other observations

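Of 28 listed genes of mitosis, 23 were lower with BRM014 at 30 h and none higher (82.1%, against 19.1% of all tested genes lower; median log2 fold change -0.42; edgeR, adjusted p below 0.05). At 6 h 4 were lower and none higher (median -0.17), and this 14.3% is near the 14.4% of all tested genes. At an unadjusted p below 0.05, 10 were lower at 6 h, against 2343 of the 11835 tested genes. Over time, 12 of them were lower at 30 h than at 6 h in DMSO (42.9%, against 17.2%) and 27 under BRM014 (96.4%, against 16.9%).

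Of 32 ribosomal protein genes, 1 was lower and none higher with BRM014 at 30 h (3.12%, against 19.1% of all tested genes lower), and none passed at 6 h. There, 3 were lower and 1 higher at an unadjusted p below 0.05, against 2343 and 1809 of the 11835 tested genes. Over time 8 were lower in DMSO (25%, against 17.2%; median -0.10) and 7 under BRM014 (21.9%, against 16.9%; median -0.15). Of 25 oxidative phosphorylation genes, 15 were lower with BRM014 at 30 h (60.0%, against 19.1%; median -0.29), and at 6 h none passed, also at an unadjusted p below 0.05 (median 0.02). Over time in DMSO 11 were higher (44.0%, against 18% of all tested genes higher; median 0.25), and over time under BRM014 1 was lower (4.0%, against 16.9%; median -0.09). The comparisons at 30 h and over time in DMSO share the DMSO 30 h libraries.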
